A study of Homo sapiens with 3 samples.

Results

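Neighbouring binding summits of the transcription factor TFE3 that lay 1 kb or less apart were examined in HK-2, an established human cell line from the proximal tubule of the kidney. Summits are the single bases at which the authors' peak lists place the strongest signal of each bound region. Members were chosen by position, by pairing the summit lists of the 2 replicate libraries on chromosomes 1 to 22 and X, each summit with its mutual nearest within 100 bp, and by taking neighbouring paired summits at a distance of at most 1000 bp. Of 47373 distances between neighbouring paired summits, 4127 met this limit. That is 8.71%, and because the limit chose them this share is a description with no test. The 4127 members involve 7844 of the 47396 paired summits, since a summit in the middle of a row of 3 or more belongs to 2 members, so the members are not independent of each other.

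The series holds 3 samples, which are 2 ChIP-seq libraries of HA-tagged TFE3 and 1 library of input DNA, all from the same inducible line. These cells carry an HA-TFE3 gene driven by doxycycline, and the tagged protein was precipitated with an antibody matrix against HA. The protocol describes 24 h of culture either with 0.2 µg/ml doxycycline or without it, but does not tie a library to either condition. The input library entered no value here, and whether the replicates are separate cultures is not said, so their spread may be only technical. The lists hold 62322 summits in replicate 1 and 72692 in replicate 2, without read counts, so the sequencing depth is unknown. No genome sequence or gene annotation of hg19, the build of the lists, was used here, so members are given by position and cytogenetic band and no sequence is shown.

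TFE3 belongs to the MiT/TFE family of basic helix-loop-helix leucine zipper factors, which bind short E-box elements as dimers and are known for their control of lysosomal and autophagy genes. DNA in chromatin is wrapped around nucleosomes, and the distance from one nucleosome to the next, core plus linker, is the nucleosome repeat length. A value of 190 bp was taken for it, with 160 to 210 bp tried beside it. The chromatin of this study was cut with an enzyme, a treatment that is known to cleave mainly in the linkers between nucleosomes. Summits that keep to the nucleosome lattice would gather at multiples of the repeat length, and summits that do not would show a smooth distribution of distances.

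No paired summits lay as close as 1 nucleosome repeat. The shortest distance among the members was 245 bp, and 0 of 4127 lay between 170 and 210 bp apart. Only 2 were under 250 bp and 23 under 300 bp. The single lists reached lower but were sparse there. Replicate 1 alone had 7569 neighbouring summits within 1 kb, 12.2% of its 62264 distances, with a shortest distance of 167 bp and 14 between 170 and 210 bp. Replicate 2 alone had 9612, or 13.2% of 72624, with a shortest distance of 117 bp and 5 between 170 and 210 bp. Every summit in both lists had a name of its own without a letter suffix. With the peak caller not given, these names do not show whether a peak could carry more than 1 summit. The widths of the peaks are not in the lists, and the smallest distance at which 2 summits could be called apart was not measured. The empty range is therefore not shown to lack binding.

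Above this range the members filled in quickly and then formed a broad plateau. The bins of 10 bp held 17 members at 300 to 309 bp, 71 at 400 to 409 bp and 88 at 530 to 539 bp, the fullest bin. The median distance was 631 bp, with 491 and 797 bp as the quartiles. By classes of 50 bp, the share of members was 3.08% over 300 to 350 bp (95% exact binomial interval 2.57 to 3.65), 8.53% over 400 to 450 bp (7.69 to 9.42), 7.71% over 450 to 500 bp (6.91 to 8.56) and 9.72% over 500 to 550 bp (8.83 to 10.7). It was 5.43% over 950 to 1000 bp (4.76 to 6.16). The interval of the class from 450 to 500 bp overlapped that of the class before it and ended below the one after it. These intervals cover counting error only.

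**Figure D1:**
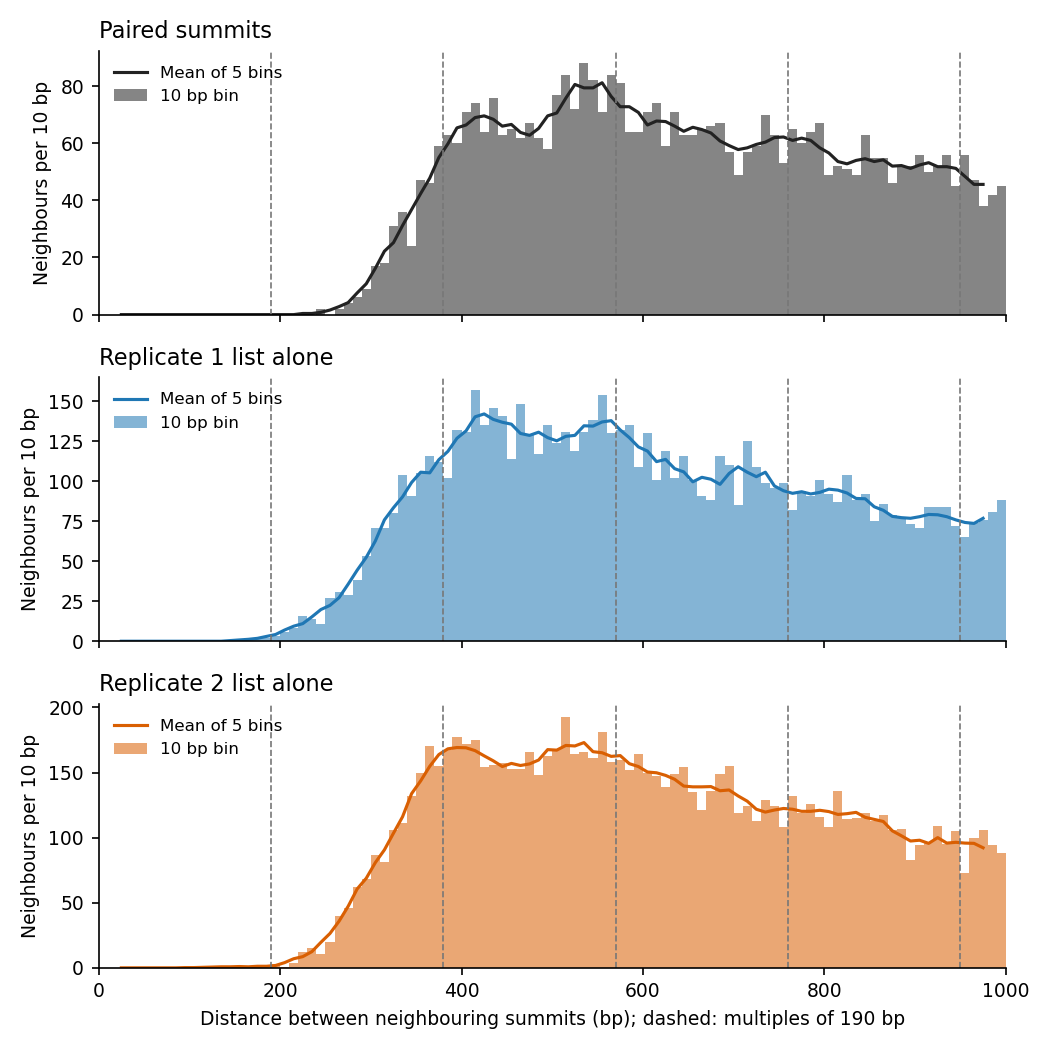
Number of neighbouring summits (y axis, per 10 bp) against the distance between them in bp (x axis) for the paired summits and for each list alone. Bars are 10 bp bins, the last of which also holds 1000 bp, lines are means of 5 bins, and dashed lines mark multiples of 190 bp. Counts rise between 250 and 400 bp, are broad up to about 600 bp and then fall, and no set has a peak at 190 bp.

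The single lists had the same broad shape with a lower start. The median distance between neighbours within 1 kb was 591 bp for the first library and 594 bp for the second. The fullest bin was 410 to 419 bp in replicate 1, with 157 neighbours, and 510 to 519 bp in replicate 2, with 193. The 2 libraries did not place it alike, but in replicate 1 the bin of 550 to 559 bp held nearly as many, 154. Smoothed over 5 bins, the maximum lay at the bin of 420 bp in replicate 1 and of 530 bp in replicate 2. These maxima, 142.0 and 173.0, were little above 137.8 at 560 bp in replicate 1 and 169.2 at 390 bp in replicate 2. As a share of the neighbours within 1 kb, the classes from 400 to 450 bp and from 500 to 550 bp held 8.90% ± 0.68 and 8.76% ± 0.37 (SD, n = 2 lists). The difference between these classes was smaller than the spread between the lists. The class from 450 to 500 bp held 8.33% ± 0.27, which overlapped both.

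The limit of 1 kb cuts through a falling slope. Members numbered 71.7 per 10 bp of distance between 400 and 600 bp and 50.5 between 800 and 1000 bp, and paired neighbours beyond the limit 35.6 between 1000 and 1500 bp and 11.1 between 5000 and 10000 bp. Just inside the limit, 42 members lay 991 to 1000 bp apart and 7 of them at exactly 1000 bp. Just outside it, the next 10 bp held 42 paired neighbours.

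At multiples of 190 bp the members were slightly more frequent than midway between multiples. Counted in windows of 41 bp, 231 members lay around 380 bp (95% Poisson interval 202 to 263), against 30 around 285 bp and 258 around 475 bp, which are the midway points before and after. Around 570 bp there were 304 (271 to 340), against 258 and 262. Around 760 bp there were 250 (220 to 283), against 262 and 220. The count at 570 bp thus exceeded both midway counts, that at 380 bp lay on the rising edge, and that at 760 bp lay between its midway counts. The sum ran up to 760 bp, the last multiple whose following midway window fits within 1 kb. In this sum, members at multiples were 1.19 times those midway.

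The ratio varied with the repeat length tried. The sums ran to the fifth multiple at 160 and 170 bp but to the fourth at 180 to 210 bp, so they cover unlike parts of the histogram. It was 0.916 at 160 bp, 1.02 at 170 bp, 1.10 at 180 bp, 1.15 at 200 bp and 0.998 at 210 bp. At 190 bp it was 1.11 in the list of replicate 1 and 1.10 in that of replicate 2. Replicate 1 had its highest ratio at 190 bp, while replicate 2 had the same ratio, 1.10, at 180 bp. From the third multiple on, which leaves out the rising edge of the histogram, the paired ratio at 190 bp was 1.11. This ratio was not computed for the lists alone, so it is not known to hold in each library. In replicate 1, 562 neighbours lay around 570 bp against 533 and 411 midway, and in replicate 2, 670 against 649 and 568. In both lists the counts around 760 bp, 385 and 494, were below those of the midway point before, 411 and 568. A histogram that rises and then falls can by itself give more counts at one set of distances than at another, and its part in the ratio was not tested. The ratio was also not above 1 throughout. It was 0.954 and 0.940 in the lowest 20% of scores of replicates 1 and 2 alone, and for members 0.672 on chromosome 2, 0.850 on chromosome 11 and 0.941 on chromosome 13.

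**Figure D2:**
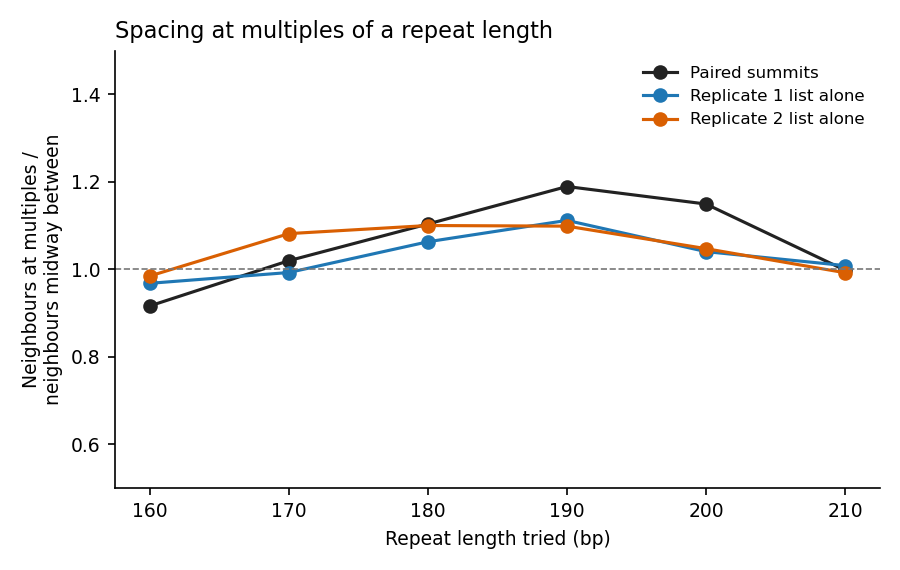
Ratio of neighbouring summits at multiples of a repeat length to those midway between multiples (y axis) for repeat lengths of 160 to 210 bp (x axis), for the paired summits and each list alone. The dashed line marks equal counts. Sums run to the fifth multiple at 160 and 170 bp and to the fourth at the other repeat lengths. Paired summits run from 0.916 at 160 bp to 1.19 at 190 bp, and the single lists stay between 0.968 and 1.11.

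The precision of the positions bears on what such a histogram can show. The distance between 2 neighbouring summits differed between the libraries by a median of 38 bp and by up to 177 bp. It agreed within 10 bp in 597 members, or 14.5%, within 50 bp in 62.2%, and differed by more than 95 bp, the distance from a multiple to the midway point, in 9.67%. In 2088 members the distance was longer in replicate 2, in 2011 it was longer in replicate 1, and in 28 it was equal. The position of a summit moved by a median of 26 bp between the libraries, both in the members and in the other paired summits. The SD of this shift was 39.5 bp for the left summit and 39.7 bp for the right, and the SD of the difference in distance was 56.6 bp. Among the 718 members whose summits both lay within 20 bp between the libraries, the ratio at 190 bp was 1.23. It rests on 42 members around 380 bp against 6 and 42 midway, which is the rising edge, 54 members around 570 bp against 42 and 54 midway and 48 around 760 bp against 54 and 31.

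Close neighbours in one library were often a single summit in the other. The other list had exactly 1 summit across 38.2% of neighbours within 1 kb of replicate 1 and 46.7% of those of replicate 2, against 28.1% and 39.8% of neighbours 1 to 2 kb apart. Of the 7569 neighbours within 1 kb in replicate 1, both summits had a partner in replicate 2 in 53.8% (95% exact binomial interval 52.7 to 54.9), and 1 of them did in 40.7%. Under 350 bp both had a partner in 28.1% of 659 neighbours (24.7 to 31.7), between 350 and 600 bp in 52.4% (50.6 to 54.1) and over 600 bp in 59.7% (58.1 to 61.3). From 1 to 2 kb the share was 60.4%, and over 10 kb it was 57.4% (56.9 to 57.9). Replicate 2 gave 20.6% of 805 neighbours under 350 bp (17.9 to 23.6), 40.9% from 350 to 600 bp and 46.6% over 600 bp (45.2 to 48.1). From 1 to 2 kb it was 45.6% in replicate 2, and over 10 kb 41.2% (40.7 to 41.7). The share of neighbours with partners for both summits thus increased with distance in each list up to 1 kb, but did not keep rising beyond it. In replicate 2 the share from 350 to 600 bp was close to that over 10 kb, and only the class under 350 bp was far below it.

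The direction was the same in each of 5 equal classes of score, ranked within each list. In the highest 20% of scores, both summits had a partner in 61.4% of neighbours under 450 bp and 80.5% of those from 450 to 1000 bp in replicate 1. In replicate 2 the values were 59.2% and 79.5%. In the lowest 20% they were 25.2% and 36.3% in replicate 1, and 13.6% (11.1 to 16.4) and 17.0% (15.0 to 19.3) in replicate 2. The intervals of the 2 distances were apart in all 5 classes of replicate 1 but overlapped in all classes of replicate 2 except the highest. Where the other library had a single summit across the neighbours, that summit mostly sat at the higher-scoring one. It lay within 100 bp of the higher summit in 77.4% of 2861 such neighbours of replicate 1, within 100 bp of the lower in 17.4%, and between them in 5.17%. In replicate 2 these shares were 80.4%, 15.4% and 4.24% of 4453. They were not counted for neighbours farther apart, so they are not shown to be particular to close ones. The share with partners for both summits also rose with score in each list, at both distances. Within the members themselves, 142 had a summit of a single library between the paired ones.

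Members with high scores were spaced more widely. The score is a value that the authors gave each summit, on a scale not named by any label, and it was ranked within each list. The score comes from the same calls that chose the members, so it is described without a test. In the lowest 20% of members by mean score percentile the median distance was 572 bp, and 19.4% (95% exact binomial interval 16.7 to 22.2) lay under 400 bp. In the highest 20% the median was 674 bp, 2.30% (1.39 to 3.57) lay under 400 bp and the shortest distance was 336 bp. The lists alone showed the same order, with medians of 532 and 650 bp in the lowest and highest 20% of replicate 1 and 537 and 643 bp in those of replicate 2. Seen the other way, the 150 members at 350 bp or less had a median score of 7.12 in replicate 1 and 8.21 in replicate 2. The 1102 members from 501 to 650 bp had medians of 11.4 and 13.0.

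**Figure D3:**
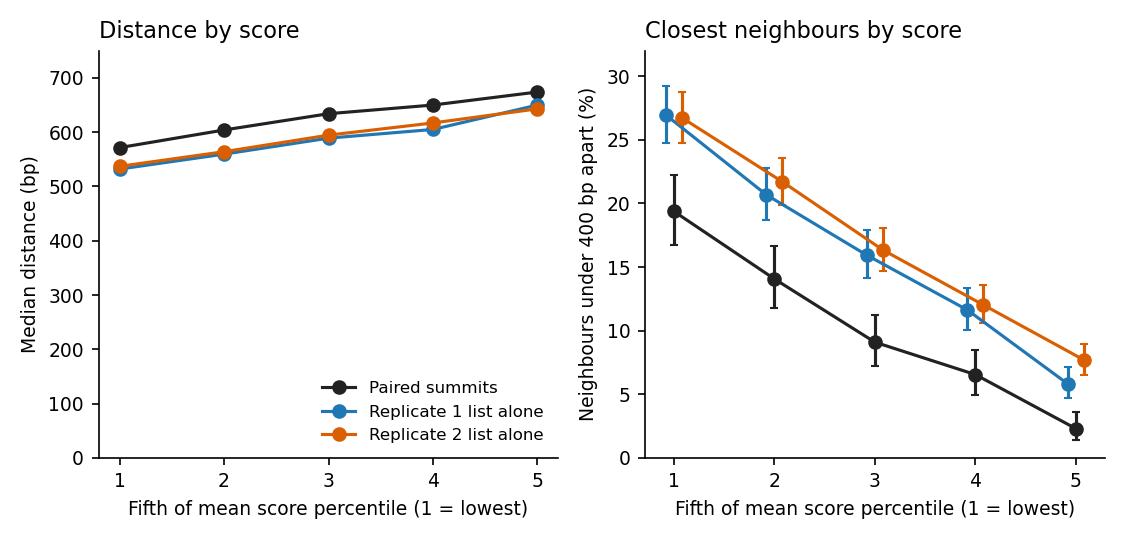
Median distance between neighbouring summits in bp (left) and share of neighbours under 400 bp apart in percent with 95% exact binomial intervals (right), by mean score percentile in 5 equal classes (x axis, 1 the lowest), for the paired summits and each list alone. Median distances of paired summits go from 572 to 674 bp while the share under 400 bp goes from 19.4% to 2.30%.

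As a group, member summits had nearly the scores of the other paired summits. Their median score percentile was 59.8 in replicate 1 and 65.1 in replicate 2, against 58.7 and 64.1 for the 39552 paired summits in no member. The top 10% of each list held 13.2% and 15.6% of member summits, against 12.1% and 14.3% of the others. Both summits were in the top 10% of both lists in 35 members, or 0.848% (95% exact binomial interval 0.591 to 1.18), against 0.935% of all paired neighbours. They were in the upper 50% of both lists in 1092 members, or 26.5%, against 26.8% of all paired neighbours. These shares were thus close to those of paired neighbours at large, of which 29590 were over 10 kb apart. Against nearer classes the members were lower. The upper 50% held both summits in 26.5% of members (25.1 to 27.8), 31.9% of neighbours 1 to 2 kb apart (30.3 to 33.6) and 30.1% of those 2 to 10 kb apart (29.2 to 31.0). Over 10 kb it was 25.1% (24.6 to 25.6). For the top 10% the share was 1.34% at 1 to 2 kb (0.967 to 1.82), an interval that overlapped that of members.

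Within a member, 1 summit typically had about 2 times the score of the other. The median ratio of the higher to the lower score was 2.05 in replicate 1 (quartiles 1.41 and 3.30) and 2.05 in replicate 2 (1.38 and 3.33). The higher summit had a median score percentile of 78.1 and 81.0 in the 2 lists, and the lower 37.6 and 46.7. Scores were within 1.5 times of each other in 29.6% of members in replicate 1 and 30.6% in replicate 2, and in both libraries in 571 members, or 13.8%. A ratio of 5 or more was found in 488 and 520 members, of which 242 were the same members in both libraries. The left summit was the higher in 49.5% and 50.1%, so neither side was favoured along the chromosome.

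The imbalance was only slightly greater than between summits farther apart. Paired neighbours 1 to 2 kb apart had median ratios of 1.97 and 2.02, those 2 to 10 kb apart 1.91 and 1.97, and those over 10 kb apart 1.89 and 1.93. The ratios for members were above those for neighbours over 10 kb apart in both libraries, and the difference was not tested. Spearman's correlation of the left with the right score across the 4127 members was -0.07 in replicate 1 and -0.06 in replicate 2, and 0.02 in both for neighbours 2 to 10 kb apart. All of these are close to 0. By distance, the median ratio in replicates 1 and 2 was 1.92 and 1.86 at 350 bp or less, 2.03 and 2.01 over 350 to 500 bp, 2.13 and 2.16 over 500 to 650 bp, 2.09 and 2.10 over 650 to 800 bp, and 1.99 and 2.06 over 800 bp. It did not rise steadily with distance.

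Which summit of a member was the higher was largely shared by the libraries. Leaving out 71 members with a tie, the same summit was higher in both libraries in 3197 of 4056, or 78.8% (95% exact binomial interval 77.5 to 80.1). For neighbours over 10 kb apart this share was 76.6% (76.1 to 77.1). It depended on the size of the imbalance. The classes of ratio that follow cover all 4127 members, with ties kept, so they are not a breakdown of the share above. Members tied in replicate 1 have no higher summit there and fall in the lowest class, which can lower its share. Where the scores of replicate 1 were within 1.2 times of each other the share was 45.9% (41.6 to 50.2), at a ratio of 2 to 3 it was 87.0%, and at 5 or more it was 98.4% (96.8 to 99.3). Of the 1442 members with a ratio of at least 2 in both libraries, 27 had opposite summits higher. The log2 ratios of right to left score had a Pearson correlation of 0.770 between the libraries across the 4127 members, some of which share a summit, and 0.729 for neighbours over 10 kb apart.

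**Figure D4:**
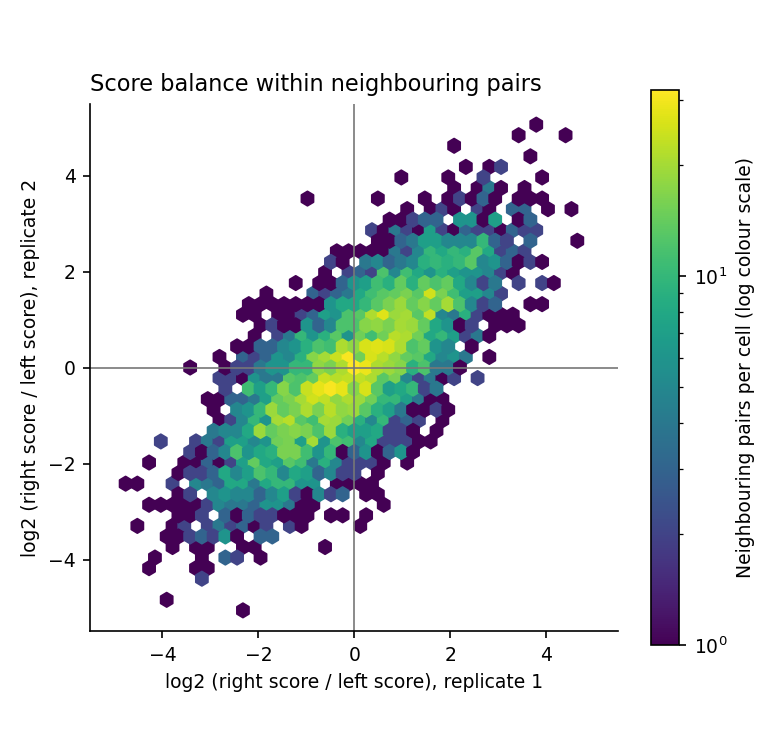
Score balance of the 4127 members, as log2 of the right over the left score in replicate 1 (x axis) and replicate 2 (y axis). Colour gives the number of members per cell on a log scale. Most cells lie in the lower left and upper right quadrants, where the same summit is higher in both libraries (78.8% of members without ties).

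Of the members with the highest mean score percentile, the first was chr5:134262762-134263454 in band 5q31.1, with 692 bp between its summits. Its left summit scored 131.1 in replicate 1 and 108.5 in replicate 2, and its right summit 95.7 and 99.8. The second lay in the same band at chr5:134260266-134261166, 900 bp apart, with 80.9 and 79.9 on the left and 45.1 and 57.5 on the right. The left summit was thus the higher in both libraries in each of these. Whether reads collect at these places without binding was not tested.

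The third, chr17:49198398-49199339 in 17q21.33, had summits 941 bp apart with 51.5 and 64.5 on the left and 45.7 and 56.5 on the right. At chr1:243418659-243419198 in 1q43, 539 bp apart, the right summit was the higher, with 52.1 and 78.1 against 28.9 and 45.2. At chr19:57791262-57791782 in 19q13.43, 520 bp apart, the scores were 44.4 and 45.4 on the left and 34.8 and 43.2 on the right. These members kept the same higher summit in both libraries.

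At chr2:128785021-128785793 in 2q14.3 the summits were 772 bp apart, and the right one was higher by 1.42 times in each library. At chr10:105880835-105881697 in 10q25.1 the distance was 862 bp and the right summit was higher by 2.51 and 2.46 times. At chr22:29137875-29138564 in 22q12.1 the distance was 689 bp, with 45.9 and 56.2 on the left and 28.4 and 49.3 on the right. Each of these also had the same higher summit in both libraries.

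The last of the first 10 were chr17:30488289-30489169 in 17q11.2, 880 bp apart, and chr9:130829629-130830328 in 9q34.11, 699 bp apart. In 17q11.2 the left summit was higher by 1.18 times in replicate 1 and 1.62 times in replicate 2. In 9q34.11 the libraries differed, with 34.1 and 44.6 from left to right in replicate 1 and 47.9 and 36.3 in replicate 2. The distances of the 10 ran from 520 to 941 bp. Of these, 772 and 941 bp lay within 20 bp of a multiple of 190 bp, and none lay within 20 bp of 380 or 570 bp. The multiple near 941 bp was not among those summed for the ratio. The share over all members was not counted in this way, so nothing is read from these distances.

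The least balanced members were sought among the 814 whose higher summit was in the top 10% of both lists, and there chr3:197463025-197463915 in 3q29 had the largest mean log2 ratio. Its left summit scored 4.17 and 3.44 and its right summit 92.5 and 94.7, which is 22.2 and 27.5 times higher. At chr7:23513614-23514060 in 7p15.3, 446 bp apart, the right summit scored 74.0 and 79.0 against 5.80 and 2.47. At chr3:179280542-179281413 in 3q26.33 the left summit scored 78.7 and 73.3 against 5.65 and 2.58. The next were in 4q12, with ratios of 18.1 and 17.9, and in 1p34.3, with 11.2 and 28.2. The lower summits of these 5 had score percentiles of up to 28.3 in replicate 1 and up to 13.2 in replicate 2.

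Near-equal pairs of strong summits were found as well. At chr19:3557674-3558246 in 19p13.3 the summits were 572 bp apart, at 572 bp in replicate 1 and 571 bp in replicate 2. They scored 30.4 and 28.5 from left to right in replicate 1 and 28.2 and 28.0 in replicate 2. At chr20:55362824-55363573 in 20q13.31, 749 bp apart, the scores were 34.6 and 39.5 in replicate 1 and 27.2 on each side in replicate 2. The next were in 19q13.2, 1q41 and 19q13.43, at distances of 626, 583 and 815 bp and with ratios of at most 1.21. Of these 5 balanced members, 3 were on chromosome 19, which held 255 of all 4127 members. The chromosomes of the members they were sought among were not counted, so nothing is read from this.

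The closest members ranged in score. At chr4:160096567-160096812 in 4q32.1, 245 bp apart, the scores were 4.54 and 6.89 from left to right in replicate 1 and 3.33 and 11.8 in replicate 2. At chr11:126264624-126264872 in 11q24.2, 248 bp apart, they were 3.70 and 3.33 in replicate 1 and 3.49 and 4.41 in replicate 2. The distance there was 191 bp for the first library and 306 bp for the second, a difference larger than the 112 bp that covered 95% of members. The next were in 12p12.1, 11p15.5 and 9q34.13 at 261, 264 and 277 bp. Their higher summits scored 15.8, 12.6 and 11.98 in replicate 1 and 13.6, 12.2 and 12.4 in replicate 2, above the medians of the lists, 8.55 and 8.38. Their lower summits scored 1.58, 7.26 and 5.65 in replicate 1 and 4.83, 9.50 and 7.76 in replicate 2. Of these lower summits, only that in 11p15.5 was above the median of a list, in replicate 2. The widest, all at 1000 bp, included chr3:141086235-141087235 in 3q23, with 18.6 and 28.8 in replicate 1 and 54.1 and 49.3 in replicate 2.

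Most members stood alone, and rows of more than 3 summits were rare. Only 8.71% of all paired neighbours met the limit, and how many rows this share alone would give was not computed. Members formed 3717 runs of neighbouring summits, of which 3355 were single members, 318 joined 3 summits, 42 joined 4, 1 joined 5 and 1 joined 7. Runs of 3 or more summits held 772 members, or 18.7%, with a median distance of 635 bp, against 629 bp for single members. Spearman's correlation was 0.05 across 410 pairs of successive distances, which share a summit, their median difference was 185 bp, and 26 pairs were within 20 bp of each other.

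The longest run lay at chr14:50234308-50237949 in 14q21.3, with 7 summits over 3641 bp. Its distances were 492, 846, 478, 378, 682 and 765 bp in order. The scores of its summits in replicate 1 ran from 4.30 to 18.6 and in replicate 2 from 5.43 to 23.7. The libraries did not share the order of these scores, since the third summit was the highest in replicate 1, at 18.6, and the lowest in replicate 2, at 5.43. The run of 5 summits, at chr12:124873952-124877005 in 12q24.31, had distances of 706, 799, 607 and 941 bp. Its middle summit was the highest in replicate 1, at 9.96, and its last in replicate 2, at 17.9.

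Of the 42 runs of 4 summits, the 3 with the highest mean score percentile are given. At chr10:126772323-126774459 in 10q26.13 the distances were 619, 639 and 878 bp, and the second summit was the highest in both libraries, with 25.04 and 34.1. At chr7:100025960-100027356 in 7q22.1 they were 405, 545 and 446 bp, and the third summit was the highest in both, with 24.7 and 37.3. At chr8:144300856-144302697 in 8q24.3 they were 433, 616 and 792 bp, and the first was the highest in both, with 25.8 and 25.4. Over all 42 runs of 4 summits, the same summit was the highest in both libraries in 28, or 66.7%.

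**Figure D5:**
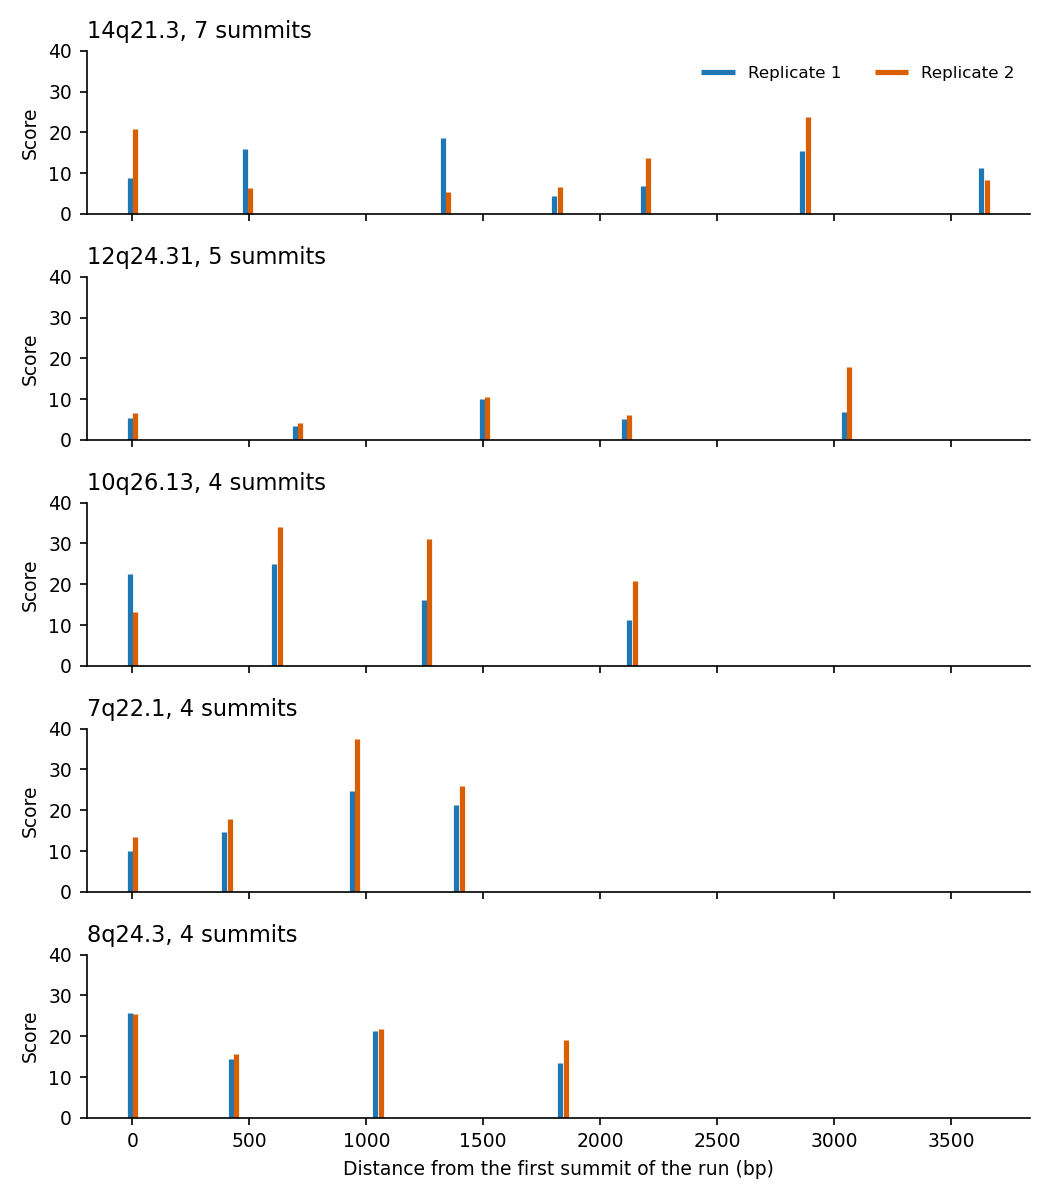
Scores (y axis) of the summits of the 5 longest runs against the distance from the first summit in bp (x axis), with replicate 1 and replicate 2 side by side. Distances between summits within a run range from 378 to 941 bp and show no constant step.

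Members were a larger share of neighbours on chromosomes dense in summits. They made up 10.8% of paired neighbours on chromosome 19 (95% exact binomial interval 9.54 to 12.1), 10.6% on chromosome 14 (9.20 to 12.2) and 10.5% on chromosome 17 (9.37 to 11.7). Chromosome 15 had the lowest share, 5.81% (4.54 to 7.31), followed by chromosome 13 with 5.84% and chromosome 21 with 5.94%. The intervals of 4 chromosomes, 19, 14, 17 and 1, lay above the share over all chromosomes and those of 7 below it. Spearman's correlation of the share with the number of paired neighbours per Mb was 0.861 across the 23 chromosomes, which share their libraries and, through summit density, part of the measure itself. Chromosome 14, with 176 members, had a high share with 1654 paired neighbours over its 107 Mb. Chromosome 19 had 2369 over its 59.1 Mb. These are lengths of whole chromosomes.

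In each list alone the share was 16.2% ± 0.37 on chromosome 19, 14.5% ± 0.75 on chromosome 14, 9.64% ± 1.6 on chromosome 15 and 9.19% ± 0.36 on chromosome 13 (SD, n = 2 lists). The differences between the first 2 and the last 2 were larger than the spread between the libraries. By Giemsa staining, which marks gene-poor bands dark, members were 9.09% of neighbours in unstained bands (8.75 to 9.44) and 9.73% in bands of 25% stain (8.97 to 10.5), against 6.78% in bands of 100% stain (5.97 to 7.65). The spacing itself did not follow this order. Its median was 631 bp in unstained bands and 624 bp in bands of 100% stain, and it ran from 558 bp on chromosome 21, with 25 members, to 683 bp on chromosome 16. The bands with the most members were 19p13.3 with 48, 19q13.32 with 39, and 19p13.2 and 1q32.1 with 33 each, and per Mb 19q13.32 held 13.9 against 6.96 in 19p13.3. Paired neighbours were not counted by single band, so these numbers do not show a larger share of members there.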

How the data were processed

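The authors deposited summits, each 1 bp long with a name and a score, in a separate list per ChIP library. The build is hg19, per the submitters' processing notes. Aligner, peak caller, pooling and any use of the input are not given in the sources used, and the scale of the deposited score is unknown, so scores were ranked and compared only within a list. From these lists, positions were made 1-based, 35 and 45 summits outside chromosomes 1 to 22 and X were left out, and summits were paired as described; a member's position is the floor of the mean. Windows at multiples of a repeat length reached 20 bp to each side. Intervals are exact at 95% and cover counting error only. No test was run, because there is 1 group of ChIP libraries.

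Named members are the 10 with the highest mean score percentile, the 5 longest runs (ties by mean score percentile), the 5 least and 5 most balanced with the higher summit in the top 10% of both lists, and the closest and widest. The rule also asked for 5 members 170 to 210 bp apart, and there were none. Members and rules were chosen with earlier results of these data known. Planned steps that need a genome (E-boxes, genes) were not run. Alternatives were other pairing limits, score limits, each list alone, other bins, windows and repeat lengths, members with nothing between them or touching no other, and, chosen after seeing the data, members positioned within 20 bp between libraries. The steps were tested on simulated lists. Their positions shifted less between lists than those of these data, and their distances had no such rising edge. How well the ratio would find a repeat in data like these was therefore not shown. Bands came from circlize 0.4.16 (R 4.3.3), and calculations used Python 3.11.15, NumPy 2.4.6, pandas 2.3.3, SciPy 1.17.1 and matplotlib 3.10.9.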

Additional observations from a re-analysis of the deposited data

How the results depend on the processing

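No paired analysis was possible because there is 1 group of 2 ChIP replicates. Depth and peak widths are unknown, and the shift of positions between libraries limits what the spacing can resolve. A value counts as moved when it left the spread between the lists, for the number of members 1.5 times, and for the share with the same summit higher its exact interval. The spread was narrow for the score ratios and the ratio at 190 bp, so small shifts count. Of 76 values, 51 moved and 25 did not, and the cause was not tested.

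At a pairing limit of 50 bp there were 2571 members, with a median distance of 626 bp and score ratios of 2.03 and 2.04 in replicates 1 and 2. At 200 bp the median was 634 bp, the ratio at 190 bp 1.15 and the score ratios 2.08 and 2.09. Among summits above the median score there were 1032 members, with a median of 672 bp, a ratio at 190 bp of 1.03, score ratios of 1.54 and 1.59, the same summit higher in 75.9% and a score percentile of 80.5. Among the 10000 highest scores there were 88 members, with 695.5 bp, a fullest bin of 680 bp, a ratio at 190 bp of 1.22, score ratios of 1.39 and 1.32, the same summit higher in 75.6% and a percentile of 94.1. With each list alone, the number of members was 7569 to 9612, the median 591 to 594 bp, the fullest bin 410 to 510 bp, the ratio at 190 bp 1.10 to 1.11, and the score ratio 2.15 in replicate 1 and 2.24 in replicate 2. Without members that hold a summit of a single library, the median was 619 bp and the score ratios 2.05 and 2.05. For members touching no other they were 2.06 and 2.06. Windows that reached 10 and 30 bp to each side, in place of 20 bp, gave ratios at 190 bp of 1.23 and 1.17. Repeat lengths of 160, 170, 180, 200 and 210 bp gave 0.916, 1.02, 1.10, 1.15 and 0.998. Where scores differed by at least 1.5 times in both lists, the same summit was higher in 93.4%. The 718 members positioned within 20 bp had a fullest bin of 680 bp, a ratio at 190 bp of 1.23, score ratios of 2.09 and 2.06, and the same summit higher in 81.5%. The ratio at 190 bp was above 1 in the alternatives listed here that kept 190 bp, but below 1 on chromosomes 2, 11 and 13 and in the lowest 20% of scores of each list.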
